A study of Mus musculus with 6 samples.

Results

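Nuclear-encoded genes of the mitochondrial respiratory chain were examined in AtT-20 cells, an established corticotroph tumour line from the mouse pituitary, after 8 days of repeated transfection with 20 nM siRNA against Dnmt1 (siDNMT1, the knockdown) or with 20 nM of a non-targeting siRNA (siNT, the control). Both groups therefore received siRNA, and no untreated cells were compared. Total RNA was hybridised to 1 array per sample, with 3 independent repeats of the transfection, so that each group has 3 arrays, numbered by repeat. The members were chosen by gene symbol alone. They are the probe sets whose single annotated symbol starts with Nduf, Uqcr, Cox4 to Cox8 or Atp5, or is Sdha, Sdhb, Sdhc, Sdhd or Cyc1. This gave 180 probe sets for 91 genes, of 34945 probe sets for 18193 genes with a single symbol on the array. Of these genes 8 are assembly factors of complex I (Ndufaf1 to Ndufaf8), which help to build the complex and are not subunits of it, and they are given apart. Ndufa4 and its paralogue Ndufa4l2 were counted with complex IV, to which the Ndufa4 product is now assigned. Probe sets with a mean scaled signal of at least 16.8 were tested, and 167 member probe sets for 90 genes passed. The exception was Cox7b2, a testis form of a complex IV subunit, with a mean of 11.8 on its only probe set. Where a gene had several tested probe sets, the brightest stands for it below.

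The respiratory chain passes electrons from NADH and succinate to oxygen. NADH dehydrogenase (complex I) and succinate dehydrogenase (complex II) reduce ubiquinone, the cytochrome bc1 complex (complex III) hands the electrons to cytochrome c, and cytochrome c oxidase (complex IV) reduces oxygen to water. Complexes I, III and IV pump protons, and ATP synthase (complex V) uses the gradient to make ATP. Complex II is encoded wholly in the nucleus, whereas the others also hold subunits encoded by mitochondrial DNA. The genes for the nuclear subunits lie on many chromosomes and are expressed in nearly all cells, and the factors NRF1, GABP, Sp1 and YY1 are known regulators of many of them.

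Some promoters of the members held motif letters that the choice by symbol did not use. RefSeq promoter windows (GRCm38.p6, 250 bases before to 50 after the start) were matched by symbol for 74 of the 91 genes. The NRF1 motif, searched as GCGC, any 2 bases and GCGC, which reads the same on both strands, was in the windows of 19 of the 74 genes (25.7%) and of 7.0% of all 27025 genes with a window. The YY1 motif AAGATGGCG, searched on both strands like the next ones, was found in 7 member genes (9.5%, against 1.64%), and its 7 matches all ran in the direction of the gene. The ETS motif CCGGAAGT, bound by factors such as GABP, was in 5 (6.8%, against 4.31%), and the Sp1 motif GGGCGG in 35 (47.3%, against 38.2%). Matches of different motifs may overlap. A match of letters is a description and not a binding site. Counted in the window of each gene with the most CpG, members held a median of 20 CpG dinucleotides, against 8 over all genes. Dnmt1 acts at CpG, but methylation of these windows was not measured here. Each motif searched holds CpG itself, and the shares over all genes were not matched for CpG. The windows of 3 genes described below are printed as examples. Those of Uqcrc1, a core protein gene of complex III on the plus strand of chr9:108936398-108936697, and of Cox6a1, the widely expressed form of a complex IV subunit on the minus strand of chr5:115348909-115349208, each hold 2 NRF1 matches, printed in capitals. The window of Cox8b, the heart and muscle form of another complex IV subunit on the minus strand of chr7:140900397-140900696, holds none of the NRF1, ETS or YY1 motifs. The numbers of CpG in these windows were 15, 32 and 2.
Uqcrc1: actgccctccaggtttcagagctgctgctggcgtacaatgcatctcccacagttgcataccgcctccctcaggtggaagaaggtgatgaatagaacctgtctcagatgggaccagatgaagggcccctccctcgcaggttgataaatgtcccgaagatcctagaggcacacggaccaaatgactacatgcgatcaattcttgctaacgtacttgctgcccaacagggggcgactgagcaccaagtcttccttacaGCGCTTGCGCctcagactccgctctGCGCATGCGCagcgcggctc
Cox6a1: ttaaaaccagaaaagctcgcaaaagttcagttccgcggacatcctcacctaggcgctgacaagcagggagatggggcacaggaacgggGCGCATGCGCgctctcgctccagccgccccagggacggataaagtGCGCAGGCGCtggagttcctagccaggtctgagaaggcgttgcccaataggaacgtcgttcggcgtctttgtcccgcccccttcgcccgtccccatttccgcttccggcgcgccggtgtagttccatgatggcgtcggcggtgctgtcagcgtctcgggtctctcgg
Cox8b: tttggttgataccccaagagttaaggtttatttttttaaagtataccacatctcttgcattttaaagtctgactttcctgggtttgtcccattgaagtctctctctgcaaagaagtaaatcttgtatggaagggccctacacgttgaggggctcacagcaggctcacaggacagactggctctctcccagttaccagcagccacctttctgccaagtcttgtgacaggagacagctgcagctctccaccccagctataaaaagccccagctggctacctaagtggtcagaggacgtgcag
The 19 genes with the NRF1 motif had a median log2 difference between knockdown and control of -0.13, and the 54 tested genes with a window but without the motif one of -0.14.

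The targeted gene was lower in each knockdown array than in each control array. On the brightest of its 3 probe sets Dnmt1, which copies methylation to newly replicated DNA, had scaled signals of 214, 142 and 301 in knockdown arrays 1 to 3 and of 541, 701 and 619 in control arrays 1 to 3. This separation, in an exact two-sided permutation test of 3 against 3, gives p = 0.1, the smallest possible. The log2 difference was -1.54 (SE 0.24), with a limma adjusted p of 0.151, and of 0.0211 when the repeat number was a block (the paired fit below). Without knockdown array 3 it was -1.79, with a limma adjusted p of 0.0440. Of the corticotroph markers, Pomc, the precursor gene of corticotropin, had a mean scaled signal of 9229 ± 1974 (SD, n = 3) in the control, and Tbx19, the corticotroph T-box factor gene, 1504 ± 125. Control means were 6470 for Chga and 1037 for Pcsk1, but only 256 for Neurod1, 172 for Crhr1 and 171 for Pitx1. The tested markers of other cells were dimmer, with Csf1r of macrophages the highest at 120 in the control. The summed scaled signal of the tested fibroblast markers (5 of 6) was 145 to 197 in the knockdown and 124 to 153 in the control, that of macrophage markers (3 of 4) 189 to 235 and 186 to 227, that of endothelial markers (2 of 3) 69.0 to 75.6 and 49.5 to 77.4, and that of other pituitary lineages (4 of 6) 108 to 170 and 109 to 211. No tested marker was listed at 0, and their part in the results was not tested. In RNA from cultured cells, fewer cells and less RNA per cell cannot be told apart.

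With the arrays brought to 1 common median, most respiratory chain genes had slightly lower values in the knockdown, and none passed the test. Of the 90 tested genes 81 were lower and 9 higher, with a median log2 difference of -0.14, a level of 90.5% of the control. Over all 27022 tested probe sets 59.2% were lower and the median was -0.0555. Of the other probe sets with a mean scaled signal of 1024 or above 79.1% were lower. The count of lower member genes was 68 of 90 with quantile scaling and 66 of 90 with brightness centring. No member gene differed by more than 0.5, and 14 differed by more than 0.25, on the log2(scaled signal + 5.29) scale. With limma 0 of 167 member probe sets passed the adjusted threshold of 0.05, against 0% of all tested probe sets, and the smallest adjusted p of a member was 0.9997. At an unadjusted p under 0.05 there was 1 member probe set, which was lower, against a background of 2.47% lower, and 0 were higher, against 1.32%. In the paired fit again 0 members passed, beside 0.0851% of all probe sets, and the smallest paired limma adjusted p was 0.435. In that fit 26 member probe sets, all lower, had an unadjusted p under 0.05 (0 were higher, against 2.45% of all probe sets), where the background of lower ones was 5.39% of all probe sets and 11.8% of other probe sets with a mean scaled signal of 1024 or above. The standard errors of the members at 1024 or above ran from 0.117 to 0.215 without the block and from 0.0796 to 0.131 in the paired fit, beside a median absolute log2 difference of 0.147 for the same genes.

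**Figure D1:**
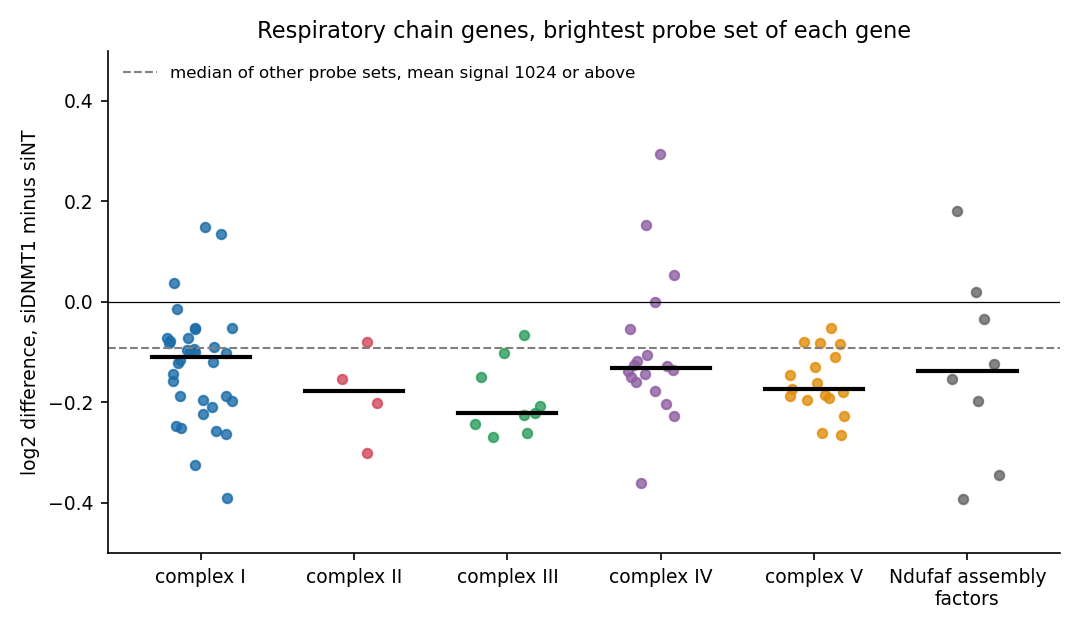
Log2 difference between knockdown and control (vertical axis) for the 90 tested genes, 1 point per gene by its brightest probe set, grouped by complex, with the Ndufaf assembly factors apart. Black bars are medians, the lowest being that of complex III at -0.22, and the dashed line is the median of other probe sets of mean signal 1024 or above, -0.0913.

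By complex, the medians ran from -0.11 in complex I (34 tested genes, 31 lower) to -0.22 in complex III (9 genes, 9 lower). Complex II stood at -0.18 (4 genes, 4 lower), complex IV at -0.13 (18 genes, 14 lower), complex V at -0.17 (17 genes, 17 lower) and the assembly factors at -0.14 (8 genes, 6 lower). No complex held a gene past the threshold in either limma fit. Knockdown and control arrays did not overlap for 13 lower genes, against 5.78% of all tested probe sets, and for 1 higher gene, against 2.96%. Among the 68 subunit genes with a mean scaled signal of 1024 or above, 11 (16.2%) were lower without overlap and 1 was higher. The background of all other probe sets at 1024 or above was 8.64% lower and 1.87% higher. By brightness, 10 of 36 member probe sets at 1024 to 2048 were lower without overlap, against 8.37% of the others. At 2048 to 4096 it was 8 of 56, against 13.75%, and above 4096 it was 1 of 18, against 1.37%.

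The order of the complexes changed without knockdown array 2. Complex II was then the lowest at -0.18, while the median of complex III was -0.0690, of complex IV -0.0031, of complex V -0.0685 and of complex I -0.0524, and that of all members -0.0685. Without knockdown array 1 complex IV was at -0.24, and without control array 1 complex IV was at -0.0803 and complex V at -0.11. Quantile scaling put complex I at -0.0323, complex II at -0.0900, complex III at -0.14, complex IV at -0.0202 and complex V at -0.0861.

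Complex I takes electrons from NADH through a flavin and a chain of iron-sulphur clusters. Its catalytic core genes were lower in 5 of 6 cases, with a median of -0.20, and its 28 tested accessory genes had a median of -0.10. Ndufv1, which carries the flavin site, had scaled signals in arrays 1 to 3 of 2179.5, 1498 and 1824 in the knockdown and 2498, 2391 and 1962 in the control. The 2 groups overlapped only in that knockdown array 1 lay above control array 3, and the log2 difference was -0.32 (SE 0.17). Its 2 other probe sets differed by -0.26 and -0.32, and there the groups did not overlap. Ndufs1, which encodes the largest iron-sulphur subunit, was the lowest gene of the complex at -0.39 (SE 0.23). Its signals were 296, 313 and 174 in the knockdown and 362, 276 and 369 in the control, so that knockdown array 2 lay above control array 2 and the size rests on repeat 3. The core gene Ndufs7 differed by -0.26 (SE 0.14) and Ndufs3 by -0.14 (SE 0.13), each with groups that did not overlap, and Ndufv2 by -0.05 (SE 0.12). The exception among the core genes was Ndufs8, at 0.04 (SE 0.16) on its brightest probe set, where repeats 1 to 3 gave 0.51, -0.32 and -0.08. Most of its 5 dimmer probe sets lay at -0.28 to -0.0856 and 1 at 0.11.

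Among the accessory genes, Ndufa10 and Ndufb5 were the nearest to the threshold. Ndufa10 had signals of 1697, 1619.9 and 1599 in the knockdown and 1949, 2033 and 1893 in the control, and each knockdown array lay below each control array, with a difference of -0.26 (SE 0.13) and a paired limma adjusted p of 0.564. Ndufb5, of the membrane arm, had signals of 2543, 2240.4 and 2312 in the knockdown and 2853, 2838 and 2726 in the control and differed by -0.25 (SE 0.12), again without overlap. Ndufb1, Ndufb2 and Ndufb8 were also lower without overlap, at -0.25, -0.21 and -0.20. A single tested gene was higher without overlap, Ndufb7, a membrane arm subunit named after its values were seen. Its signals were 1889, 1881 and 1939 in the knockdown and 1679.7, 1789 and 1726 in the control, a difference of 0.14 (SE 0.13). Its second probe set differed by -0.15, so the gene has no direction on this array. Ndufb4, the highest of the complex at 0.15 (SE 0.41), has a probe set at 17.4, next to the filter, and is uncertain. Of the assembly factors, Ndufaf5 was the lowest of the 90 genes and the only one of its group without overlap. Its signals were 150.3, 186 and 137 in the knockdown and 218, 201 and 201 in the control, with a difference of -0.39 (SE 0.18) and a paired limma adjusted p of 0.592.

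Complex II oxidises succinate with the flavoprotein Sdha and the iron-sulphur protein Sdhb, held in the membrane by the anchors Sdhc and Sdhd. The anchor genes had a median difference of -0.25 and the catalytic genes of -0.12. Sdhc, the member gene with the smallest unadjusted p, had signals of 1086, 1047 and 1042 in the knockdown and 1288, 1317 and 1307 in the control. The means were 1058 ± 24.0 against 1304 ± 14.5 (SD, n = 3), a log2 difference of -0.30 (SE 0.13) with an unadjusted p of 0.0412, a limma adjusted p of 0.9997 and a paired one of 0.518. Its second probe set, dimmer, overlapped between the groups and differed by -0.11. Sdhd differed by -0.20 (SE 0.14), with 0.03 on its dimmer probe set, and Sdhb by -0.15 (SE 0.14). Sdha differed by -0.08 (SE 0.21) and had signals of 411, 499 and 411 in the knockdown and 364, 439.8 and 624 in the control. Knockdown was above control in repeats 1 and 2 and below it in repeat 3, so Sdha showed no common direction.

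Complex III carries electrons from ubiquinol to cytochrome c through the Rieske protein Uqcrfs1 and cytochrome c1 (Cyc1), next to the core proteins Uqcrc1 and Uqcrc2. In 8 of its 9 genes the knockdown value was lower in all 3 repeats, against 19.2% of all tested probe sets and 36.7% of the others at 1024 or above. The lowest gene was Uqcrc1, whose promoter is printed above, with signals of 945, 942 and 911 in the knockdown and 1032, 1332 and 1034 in the control. The groups did not overlap, but control array 2 stood far above the other control arrays, and the difference of -0.27 (SE 0.15) was -0.50 in repeat 2 and -0.13 and -0.18 in repeats 1 and 3. Uqcrc2 showed the other order, with signals of 1508, 1983 and 1489 in the knockdown and 1846, 2047 and 2029.9 in the control. Its difference of -0.26 (SE 0.15) was -0.0457 in repeat 2 and -0.29 and -0.45 in repeats 1 and 3. Cyc1 had signals of 4136, 3157 and 3920.2 in the knockdown and 4763, 4033 and 4413 in the control and was lower in each repeat, by -0.20, -0.35 and -0.17, but the groups overlapped, and the difference was -0.24 (SE 0.14). The small subunit Uqcrb lay nearest 0, at -0.07 (SE 0.12). Uqcrq, another small subunit, differed by -0.22 (SE 0.15) on its bright probe set, while 3 dim ones lay at -0.53, -0.25 and 0.21.

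**Figure D2:**
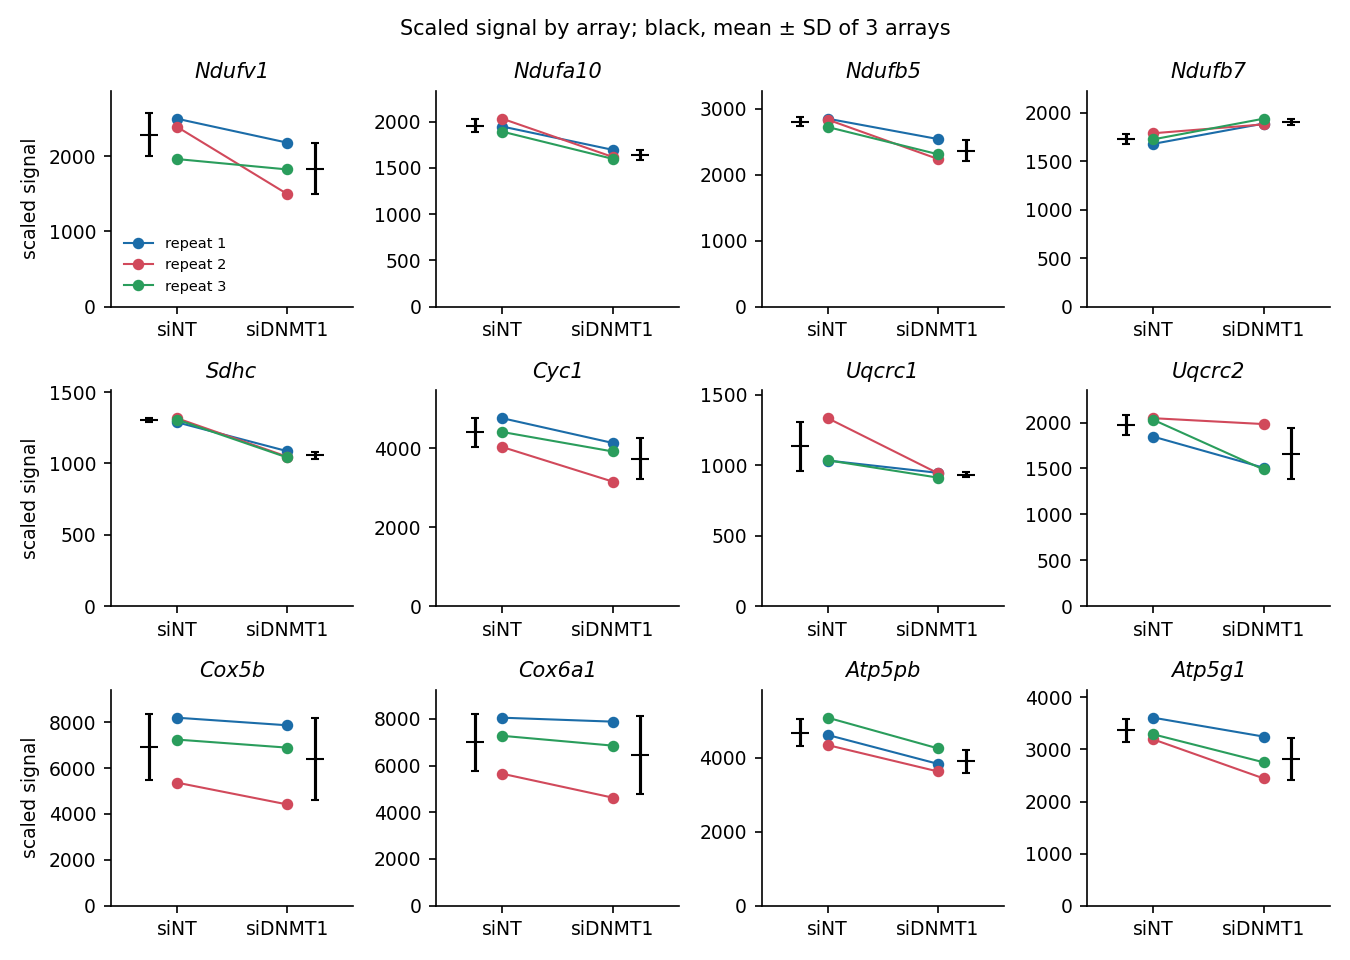
Scaled signal (vertical axis, from 0) in the control and the knockdown for 12 genes, with lines joining the arrays of 1 repeat and black bars for the mean ± SD of 3 arrays. For Sdhc the knockdown arrays lie at 1042 to 1086 and the control arrays at 1288 to 1317, whereas for Cox5b the spread between repeats exceeds the difference between groups.

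Complex IV held the brightest probe sets of the members, and the groups overlapped for each of its 18 tested genes. Non-overlap was also rare among other probe sets, with 1.37% lower above 4096. Over all tested probe sets it was 5.78% lower and 2.96% higher, so a count of 0 among 18 says little about the complex. The 7 genes with mean scaled signals above 4096 differed by -0.159 to -0.105. Cox5b had signals of 7863, 4413 and 6889 in the knockdown and 8193, 5364 and 7239.6 in the control, and Cox6a1 7885, 4629 and 6857 in the knockdown and 8053, 5652 and 7277 in the control. In each the arrays of repeat 2 were the lowest of their group, and the gap between repeats was larger than that between the groups. The paired differences of Cox6a1 in repeats 1 to 3 were -0.03, -0.29 and -0.09. Cox4i1, at the entry of complex IV assembly, differed by -0.10 (SE 0.17), Cox6b1 by -0.14 (SE 0.18), Cox7a2 by -0.12 (SE 0.18) and Ndufa4 by -0.18 (SE 0.14). The supercomplex factor gene Cox7a2l differed by -0.13 (SE 0.15) and Cox8a by -0.13 (SE 0.13). Dim probe sets of Cox5b and Cox8a gave 0.62 and 0.37, against -0.21 to -0.13 on their bright ones. Cox7c was covered only by probe sets of 30.9 and 6.79, and its value of 0.05 (SE 0.61) is uncertain.

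Several complex IV subunits have forms specific to muscle, testis or lung, and these were dim in both groups. With the Ndufa4 paralogue Ndufa4l2 counted among them, the 7 tested forms had mean scaled signals of 17.2 to 168. Of these forms 4 were lower and 3 higher. Cox6a2, the heart and muscle form paired with Cox6a1, had signals of 51.3, 45.7 and 59.8 in the knockdown and 64.6, 59.5 and 82.4 in the control. Knockdown array 3 lay just above control array 2, and the difference was -0.36 (SE 0.22). The testis form Cox8c differed by -0.23 (SE 0.21), the muscle form Cox7a1 by -0.20 (SE 0.25), the lung form Cox4i2 by 0.15 (SE 0.26), Ndufa4l2 by -0.05 (SE 0.21) and Cox8b by 0.00 (SE 0.51). The testis form Cox6b2 was the highest member at 0.30 (SE 0.39), with signals of 17.0, 21.5 and 51.9 in the knockdown and 22.2, 21.0 and 20.2 in the control. Only knockdown array 3 stood out there, and without it the value was -0.11. The untested Cox7b2 had signals of 12.3, 26.2 and 14.6 in the knockdown and 1.55, 7.49 and 8.44 in the control, which did not overlap, but 5 of the 6 values were below the filter. The promoter windows of Cox6b2, Cox7b2, Cox7a1 and Cox8b held 10, 10, 7 and 2 CpG, and those of 9 main-form genes of complex IV with a window 14 to 35.

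Complex V turns the proton gradient into rotation of a membrane ring of c subunits, which drives the catalytic head. The 5 head genes had a median of -0.16, the 3 c subunit genes of -0.19 and the 9 genes of the stalks and membrane part of -0.17. Atp5pb, encoding subunit b of the outer stalk, had the smallest p of the members in the paired fit. Its signals were 3828, 3623 and 4246 in the knockdown and 4609, 4336 and 5076 in the control, with no overlap, and its difference of -0.26 (SE 0.13) was -0.27, -0.26 and -0.26 in repeats 1 to 3. A dimmer probe set gave -0.26 too, with a paired limma adjusted p of 0.592. The 3 c subunit genes encode the same mature protein with different import signals. Atp5g1 had signals of 3247, 2444 and 2753 in the knockdown and 3609, 3193 and 3291 in the control, where knockdown array 1 lay above control array 2, and differed by -0.26 (SE 0.14). Atp5g2 differed by -0.15 (SE 0.15) and Atp5g3 by -0.19 (SE 0.18). Atp5j, of the stalk, was at -0.19 (SE 0.13) and Atp5md nearest 0 at -0.05 (SE 0.13). The head gene Atp5c1 differed by -0.13 (SE 0.14), with 0.40 on a dim second probe set.

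Other probe sets of equal brightness were also lower. Tested probe sets were divided into bands, each spanning a doubling of the mean scaled signal. The median difference of probe sets that were not members went from 0.0085 at 16 to 32 to -0.0780 at 1024 to 2048, -0.10 at 2048 to 4096 and -0.11 above 4096. Member probe sets in the last 3 bands had medians of -0.17 (36 probe sets), -0.13 (56) and -0.14 (18). At 1024 or above 79.1% of the others were lower, and 66 of the 68 subunit genes. Relative to the median of its band, the median member gene lay at -0.0441, and 63 of 90 were below it. Complex III lay furthest below its bands, at -0.12 with 8 of 9 genes, then complex II at -0.0875, complex V at -0.0726, complex IV at -0.0308 and complex I at -0.0190. The value for all members was -0.0228 without control array 1, -0.0284 without knockdown array 2, -0.0684 without control array 2 and -0.0730 without knockdown array 1. Centring each array within classes of equal brightness left 66 of 90 genes lower and a median of -0.0555. In that fit 0 members passed, beside 0.0037% of all probe sets. At an unadjusted p under 0.05 there were 1 lower member probe set, against 2.04% of all, which was that of Sdhc at -0.24, and 1 higher, against 2.13%, that of Ndufb7 at 0.22, and the limma adjusted p was 0.9998 for each.

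**Figure D3:**
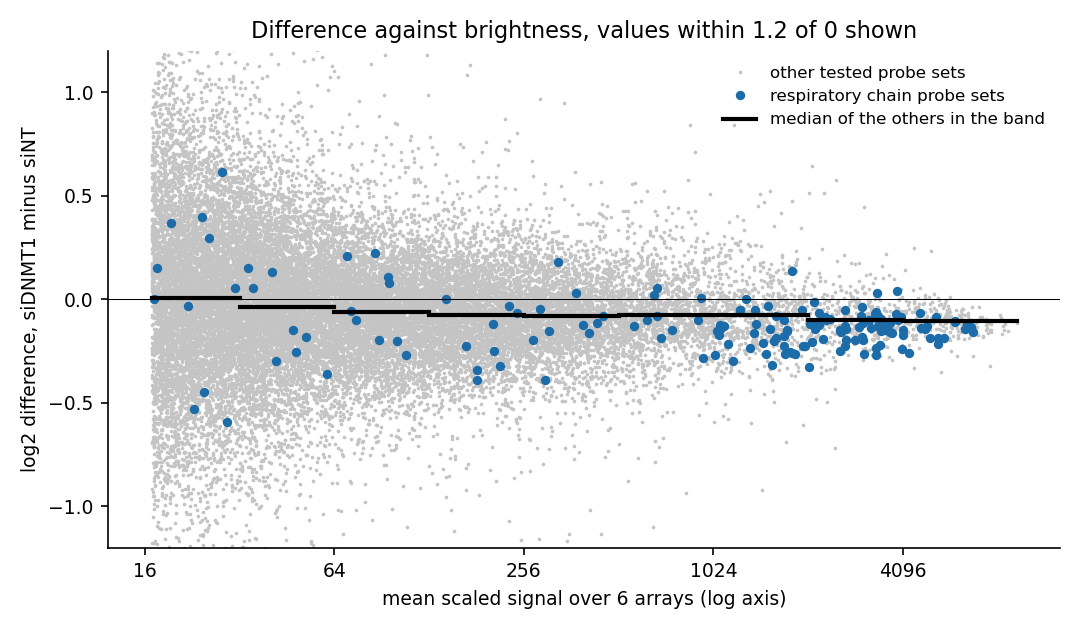
Log2 difference between knockdown and control against the mean scaled signal over 6 arrays (log axis), for tested probe sets with a difference within 1.2 of 0. Blue points are respiratory chain probe sets, grey points the others, and black bars the median of the others in each band, which moves from 0.0085 in the dimmest band to -0.11 in the brightest.

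Before the brightness of the probe sets was taken into account, the difference varied more between repeats than between complexes. The median over member genes was -0.0963 in repeat 1, -0.27 in repeat 2 and -0.0875 in repeat 3. The knockdown was lower in all 3 repeats for 50 of 90 genes, against 19.2% of all tested probe sets, and higher in all 3 for 2, against 10.1%. Among the 68 subunit genes at 1024 or above it was lower in all 3 for 44 (64.7%), against 36.7% of the others of that brightness. For complex III the repeats gave -0.12, -0.35 and -0.11, for complex IV -0.0622, -0.28 and -0.0680, and for complex V -0.12, -0.23 and -0.12. Other probe sets at 1024 or above had medians of -0.0076, -0.20 and -0.0655, so they too were lowest in repeat 2. Minus the band median of the same repeat, the members stood at -0.0854, -0.0720 and -0.0270. That range was narrower than the -0.12 to -0.0190 of the complexes relative to their bands. The arrays of repeat 2 stood apart in deposited brightness. Their signals exceeded those of the other repeats by a median log2 of 0.86 at 256 to 512 but by 0.31 above 4096, their 3'/5' signal ratios of actin were lower, 1.19 and 1.23 against 1.35 to 1.40 on the other arrays, and those of Gapdh higher, 0.852 and 0.858 against 0.777 to 0.806. The part of these measures in the repeat 2 values was not tested.

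**Figure D4:**
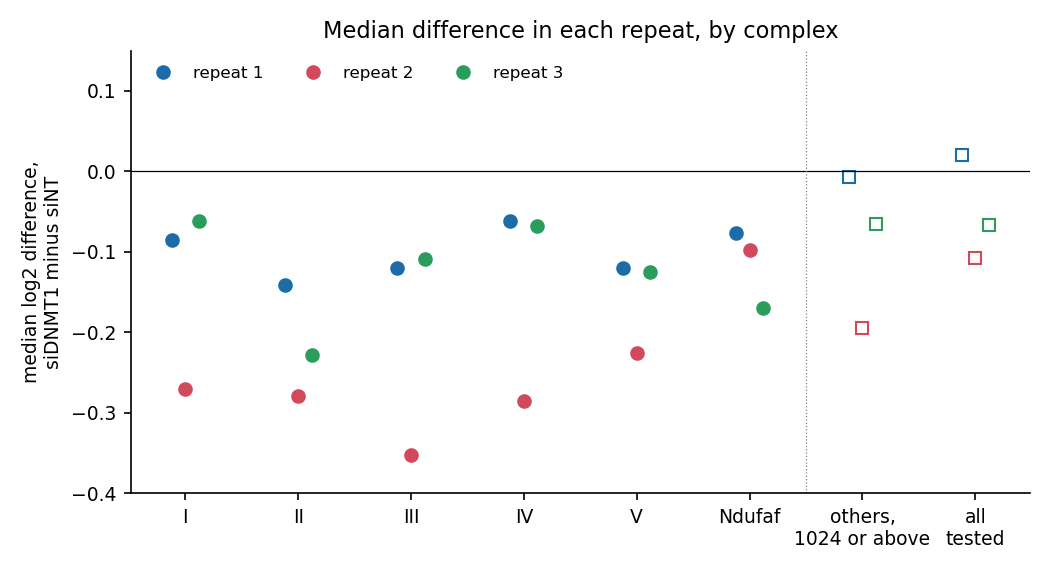
Median log2 difference between knockdown and control (vertical axis) in each of the 3 repeats, for the genes of complexes I to V, the Ndufaf assembly factors, other probe sets of mean signal 1024 or above and all tested probe sets. Repeat 2 has the lowest median in each of the 5 complexes, with -0.35 for complex III, and also among the bright others, with -0.20.

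The spread between arrays of a group was as small for members as for other bright probe sets, or smaller. At a mean scaled signal of 1024 to 2048 the residual SD between arrays of a group had a median of 0.13 for members and 0.17 for the others on the log2 scale, and at 2048 to 4096 of 0.14 for each. Several probe sets of a gene mostly gave like values. For the 48 genes with more than 1 tested probe set the median span was 0.0888. In 14 genes the probe sets differed in sign, and in 5, Atp5c1, Cox5b, Cox8a, Ndufs4 and Uqcrq, they did so by more than 0.5, each time through probe sets dimmer than the main one. Ndufs4, a complex I subunit gene, was at -0.08 (SE 0.16) on its brightest probe set and at 0.0033, 0.13 and -0.59 on the others.

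Genes that work beside the respiratory chain were read from lists of its pathway. No gene of these lists passed the limma threshold in either fit. Assembly factors outside the symbol rule had a median of -0.12 (36 tested, 26 lower and 10 higher), with the complex V assembly factor Atpaf2 at -0.56 (SE 0.21) and Coa5 of complex IV assembly at -0.27 (SE 0.16). Electron carriers and enzymes of ubiquinone synthesis stood at -0.18 (18 tested, 14 lower), with Coq10b at -0.39 (SE 0.18) and Coq8b at -0.47 (SE 0.25). Genes of the tricarboxylic acid cycle and pyruvate dehydrogenase stood at -0.21 (18 tested, 14 lower). There Idh3a, a subunit of isocitrate dehydrogenase, differed by -0.36 (SE 0.17) and Pdha1 of pyruvate dehydrogenase by -0.40 (SE 0.19). Mitochondrial carriers were at -0.15 (14 tested, 11 lower), with the pyruvate carrier gene Mpc1 at -0.32 (SE 0.13) and the citrate carrier gene Slc25a1 at 0.29 (SE 0.17). Protein import genes were at -0.14 (23 tested, 22 lower). The lowest paired adjusted p of these lists belonged to Timm8a1, a small chaperone of the intermembrane space, with signals of 358, 286 and 391 in the knockdown and 530, 603 and 622 in the control, a difference of -0.76 (SE 0.17) and limma adjusted p values of 0.697 without and 0.10 with the block. Its groups did not overlap, and the import gene Timm8b differed by -0.26 (SE 0.14). Regulators of mitochondrial biogenesis and mitochondrial DNA lay nearest 0 at -0.0275 (19 tested, 11 lower and 8 higher). Their coactivators Ppargc1b and Ppargc1a were dim and differed by -0.66 (SE 0.30) and -0.39 (SE 0.27). Among factors whose motifs were searched, Nrf1 differed by -0.12 (SE 0.21) and Yy1 by 0.11 (SE 0.19). The GABP genes Gabpa, Gabpb1 and Gabpb2 differed by -0.38 (SE 0.34), 0.04 (SE 0.19) and -0.05 (SE 0.21). Relative to bands of equal brightness, the tricarboxylic acid cycle list lay at -0.127, electron carriers and ubiquinone synthesis at -0.0874 and import at -0.0575. Assembly factors outside the rule lay at -0.0535, carriers at -0.0488 and the regulators at 0.0477, against -0.044 for all members.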

How the data were processed

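Transcript levels were measured on 6 arrays, 3 per group. The deposited table holds a linear signal intensity for each probe set, made with GCOS per the submitters' processing notes, and the GCOS settings were not given in the sources used here. No 2 arrays held identical values. Array medians ran from 19.8 to 36.3, so the arrays were brought to 1 common median on the log2 scale. The pseudocount was 5.29, the 20th percentile of deposited values, and probe sets with a mean scaled signal under 16.8, the 40th percentile, were left out (18015 of 45037, beside 64 controls). Fold changes on the log2(scaled signal + pseudocount) scale understate changes of dim genes. Symbols came from a platform annotation in which 34945 probe sets had 1 symbol, 932 several and 9160 none; 10 probe sets with a respiratory chain symbol among several were not used. All 91 member symbols matched a GRCm38.p6 gene table, with 0 changed.

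Knockdown and control were compared with limma 3.58.1 in R 4.3.3 (lmFit, eBayes with a trend, two-sided), with Benjamini-Hochberg adjusted p-values over the whole tested table, called under 0.05. The fit was tested on simulated data. The repeat number as a block was the alternative. The correlation between same-numbered arrays, each taken as deviation from its group mean, was 0.173, 0.231 and 0.257, against -0.179 to -0.0283 for other pairs. Deviations within a group sum to 0, so positive values for same numbers force negative ones for other pairs on average. The same-numbered values were positive in all 3 repeats, but by the same constraint they are not independent of each other. A pairing by number was inferred from these values and from the repeat numbers in the labels. Standard errors of single genes are from the fit without the block. The p-values measure the spread between repeats. Counts and medians over members are descriptions, without a test. Named genes were those past the threshold in either fit, the 3 of smallest p and the highest and lowest of each complex, listed tissue and paralogous forms, genes whose probe sets disagree in sign by over 0.5, the 2 of smallest p in each mitochondrial list, and Dnmt1; others were chosen after their values were seen. The members and lists were chosen with earlier results of these data known. The YY1 motif was shortened by 1 base after its first counts were seen, which raised the counts in members and in all genes. The list of mitochondrially encoded subunits had no named probe set here. Other scalings, pseudocounts, filters, probe set choices and left-out arrays were tried as alternatives. The number of arrays limits the precision.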

Additional observations from a re-analysis of the deposited data

How the results depend on the processing

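No member probe set passed the limma threshold under any of the alternatives run. The block, which takes the pairing inferred from the repeat numbers, raised the count over all probe sets from 0 to 23. It made Dnmt1 pass at -1.54 (limma adjusted p = 0.0211). With brightness centring as well the block gave 18 probe sets and -1.47 for Dnmt1 (limma adjusted p = 0.0459). The block changed no call of a member or of a gene of the pathway lists. The count over all probe sets was 1 with trimmed mean scaling, quantile scaling, brightness centring, a pseudocount of 32 or the 60th percentile filter. It was also 1 without the probe sets whose names end in _x_at or _s_at, 2 without scaling, and 0 to 4 with arrays left out. Unadjusted, 357 higher and 668 lower probe sets had a p under 0.05, against 609 higher and 500 lower with trimmed mean scaling, which moved the median of all probe sets from -0.0555 to 0.0019. The share of lower probe sets was 49.7% there, 51.1% with quantile scaling and 51.1% with brightness centring.

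The member median kept its sign under the alternatives run, at -0.149 to -0.0429 over settings and -0.210 to -0.0685 with arrays left out, with 66 to 83 genes lower; with arrays left out the count was 69 to 83. Relative to equal brightness the left-out values ran from -0.0730 to -0.0229. Complex V moved to -0.112 with trimmed mean scaling, -0.0861 with quantile scaling and -0.0767 with brightness centring, and complex II to -0.0900 and -0.0926 with the last 2. With arrays left out the ranges were -0.175 to -0.0460 for complex I, -0.263 to -0.154 for complex II, -0.279 to -0.0690 for complex III, -0.237 to -0.0031 for complex IV, -0.224 to -0.0685 for complex V and -1.79 to -1.17 for Dnmt1, which passed without knockdown array 3 (limma adjusted p = 0.0440). Leaving out both arrays of a repeat was chosen after the data were seen. The causes of these shifts were not tested.

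Values near 0 changed sign. Under trimmed mean scaling Ndufa4l2 was 0.0034 and Atp5md 0.0099. Under quantile scaling Cox4i1 was 0.011, Cox8b -0.0052, Ndufa4l2 0.00063, Sdha 0.0031, Uqcrb 0.037 and Atp5md 0.045. Under brightness centring, with or without the block, Cox8b was -0.0059, Ndufa4l2 0.011, Uqcrb 0.031 and Atp5md 0.033, and with a pseudocount of 1 Cox8b was -0.024. With arrays left out, Cox4i1 ran from -0.232, Cox6a1 from -0.296, Cox6b1 from -0.281, Cox7a2 from -0.263, Cox5b from -0.311, Ndufa4l2 from -0.209, Sdha from -0.253 and Ndufs4 from -0.213 up to the values below, and Cox6b2 and Cox8b reached 0.606 and 0.510. Without knockdown array 2 Cox4i1 was 0.076, Cox6a1 0.088, Cox6b1 0.051, Cox7a2 0.090 and Cox5b 0.11. Without knockdown array 1 Ndufa4l2 was 0.012, without knockdown array 3 Cox6b2 was -0.11 and Ndufs4 0.016, without control array 1 Cox8b was -0.31, and without control array 3 Sdha was 0.13 and Ndufs4 0.0011. Without repeat 1 Cox8b was -0.31 and Ndufa4l2 0.00026, without repeat 2 Ndufa4l2 was 0.045, and without repeat 3 Cox6b2 was -0.14, Sdha 0.18 and Ndufs4 0.096.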
